A study of Mus musculus with 15 samples.

Results

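Immediate early genes of the AP-1, EGR and NR4A groups were followed across the arrays of CD4 T lymphocytes from the gut of mice on a high-fat diet. They were taken by name, with earlier results of these data known. They are Fos, Fosb, Jun, Junb, Jund, Egr1, Egr2, Nr4a1, Atf3 and Ier2, which are 10 of the 34805 genes named on the array. Each had 1 probe, and all 10 were among the 25987 genes tested, each of which had a spot that the scanner software marked as well above background in 5 or more of the 15 arrays. On mouse build mm9, as the scanner files give it, the probes lie at chr12:86817900-86817959 for Fos, chr4:94716928-94716987 for Jun, chr18:35024395-35024454 for Egr1, chr10:67004798-67004857 for Egr2, chr15:101105071-101105130 for Nr4a1 and chr1:192994547-192994606 for Atf3.

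The cells were CD4 T lymphocytes of male mice, sorted by flow cytometry out of leukocytes from the small intestinal lamina propria. RNA was amplified with SuperAmp, a commercial procedure for small samples whose steps the labels call undisclosed, labelled with the dye Cy3 and hybridised to 1-colour Agilent arrays, 1 sample an array. The groups were 5 control samples from mice on normal chow, 5 samples at day 10 of the high-fat diet and 5 samples at day 30 of it, so that the question was how gut CD4 T cells change while the diet alters the microbiota. The labels give no strain or age, no day for the controls and nothing on whether each sample is its own mouse. All p-values here therefore reflect the scatter among these arrays, and that scatter may be technical.

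Immediate early genes are switched on within minutes of a signal at the cell surface, from transcription factors already present in the cell and without new protein synthesis. In T cells the antigen receptor, cytokines and stress reach them through MAP kinases, calcium, SRF and CREB, and the products (FOS and JUN proteins paired as AP-1, the zinc finger factors EGR1 and EGR2, and the nuclear receptor NR4A1) then set the next wave of transcription, including cytokine and activation genes. Their transcripts are short-lived, and tissue dissociation, enzyme digestion and sorting are also known to induce them in many cell types.

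Sequence before the transcription start was available for 8 of the 10 genes, from RefSeq promoter windows of mouse build GRCm38.p6, and not used here for Egr1 and Ier2. Of the motifs searched on both strands, from 250 bases before to 50 bases after each start, the CREB core TGACG lay in windows of Fos, Fosb, Junb, Egr2, Nr4a1 and Atf3, against 20.8% of all 32851 windows. The full CRE TGACGTCA, which contains that core, and the AP-1 site TGANTCA lay in none of these genes' windows, against 1.79% and 7.81% of all windows. The CArG box bound by SRF lay in windows of Egr2 and of no other of the 8 genes, against 1.63% of all windows. Some of the Egr2 windows overlap. Sites more than 250 bases before a start were not searched, so the absence of a match holds for these windows only. The Jun window held TGACATCA, a variant AP-1 site, against 3.62% of all windows, and a MEF2 site of 10 letters, against 0.11%. The EGR site GCGNGGGCG lay in windows of Fosb and Nr4a1, against 5.55%, and TATAAA lay in windows of Fos and Junb, against 13.6%. The TATAAA of Junb stood at bases 1 to 6 counted from the start, and not before it. The 250 bases before the start are printed for 4 genes that carry these motifs, 3 of them AP-1 subunits of the results below, with motif matches in capitals.
Fos, chr12:85473640-85473889, plus strand: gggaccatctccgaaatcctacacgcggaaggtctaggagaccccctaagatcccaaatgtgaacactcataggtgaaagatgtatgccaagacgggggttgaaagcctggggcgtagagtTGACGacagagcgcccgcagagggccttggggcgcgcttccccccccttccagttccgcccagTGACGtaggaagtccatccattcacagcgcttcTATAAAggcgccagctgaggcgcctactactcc
Jun, chr4:95052223-95052472, minus strand: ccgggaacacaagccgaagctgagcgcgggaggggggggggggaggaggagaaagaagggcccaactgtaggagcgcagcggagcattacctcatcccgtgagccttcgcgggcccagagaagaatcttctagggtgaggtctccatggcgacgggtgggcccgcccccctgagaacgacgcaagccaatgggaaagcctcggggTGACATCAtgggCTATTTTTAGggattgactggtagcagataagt
Fosb, chr7:19310046-19310295, minus strand: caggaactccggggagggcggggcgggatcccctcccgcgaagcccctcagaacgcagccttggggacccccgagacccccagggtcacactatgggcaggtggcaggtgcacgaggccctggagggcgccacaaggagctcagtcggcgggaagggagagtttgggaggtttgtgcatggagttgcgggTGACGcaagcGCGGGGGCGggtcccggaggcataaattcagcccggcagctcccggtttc
Egr2, chr10:67537619-67537868, plus strand: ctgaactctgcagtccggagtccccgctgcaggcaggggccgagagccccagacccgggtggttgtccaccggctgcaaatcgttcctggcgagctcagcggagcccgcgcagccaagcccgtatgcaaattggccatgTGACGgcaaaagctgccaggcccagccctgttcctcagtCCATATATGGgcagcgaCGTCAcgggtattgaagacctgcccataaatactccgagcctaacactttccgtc
In Fos the motif matches stood at -129 to -125 and -66 to -62 (TGACG) and at -33 to -28 (TATAAA), counted back from the start. In Jun they stood at -45 to -38 (TGACATCA) and -33 to -24 (the MEF2 site), in Fosb at -60 to -56 (TGACG) and -50 to -42 (the EGR site), and in the Egr2 window at -72 to -63 (the CArG box), with TGACG on either side. A match is a string of letters in a window and was not measured here as a bound site.

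The share of spots well above background, called the detection share here, set some arrays apart before any gene was compared. It was 82.0%, 66.0%, 50.9%, 64.6% and 55.5% in control replicates 1 to 5, 61.9%, 60.2%, 55.6%, 55.3% and 59.3% at day 10, and 48.7%, 53.7%, 45.2%, 59.5% and 49.6% at day 30. Control replicate 1 lay far above the other 14 arrays. The mean was 51.3% ± 5.48 at day 30, against 63.8% ± 12 in controls (SD, n = 5 each; exact permutation test, two-sided, p = 0.0556, adjusted over 3 comparisons 0.0833), and 51.3% at day 30 against 58.5% ± 2.91 at day 10 (p = 0.0397 by the same exact test, adjusted 0.0833). Slide 1 carried the 5 controls and day 10 replicates 1 to 3, and slide 2 carried day 10 replicates 4 and 5 and the 5 day 30 arrays, so no slide held both day 30 and control samples. All 10 CD4 T cell markers fixed for the check (Cd4, Cd3d, Cd3e, Cd3g, Cd5, Cd2, Thy1, Lat, Lck and Cd28) were detected in that sense on every array. Of the markers of other cells, 4 of 8 for cytotoxic cells, 2 of 6 for B and plasma cells, 3 of 8 for macrophages and dendritic cells, 2 of 7 for epithelium, 0 of 5 for granulocytes and mast cells and 0 of 6 for stroma were so on all 15, among them Gzma, Pax5, Jchain, Csf1r, Cd74, Krt18 and Pigr. The B cell marker Ms4a1 was so on no array and the dendritic cell marker Itgax on 1. In bulk samples, fewer expressing cells and less RNA per cell cannot be told apart.

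Levels are given as log2 signal minus the 75th percentile of the array, and the level of 1 probe is not comparable with that of another. The plot of levels by array shows every value. Fos, a FOS family subunit of AP-1, was well above background on all 15 arrays. Its level was 0.32, 1.95, 4.86, 3.32 and 3.66 in control replicates 1 to 5, 3.32, 2.76, 2.63, 2.80 and 3.61 at day 10, and 3.37, 3.45, 3.59, 2.82 and 4.26 at day 30. The controls spanned 4.55 log2 units and enclosed all 10 arrays of the diet groups, which spanned 0.98 at day 10 and 1.44 at day 30. The Fos probe was printed in 10 spots of each array, and their SD within an array, which covers printing and scanning only, was 0.0495 to 0.117. Fosb, a second FOS family subunit, had 1.75, 2.32, 3.99, 3.04 and 3.86 in controls, 0.96, 1.83, 2.73, 4.44 and 3.97 at day 10, and 1.94, 4.10, 3.92, 2.46 and 4.57 at day 30. Its ranges overlapped in all 3 groups, and day 10 had both the lowest and nearly the highest of the 15 values.

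**Figure D1:**
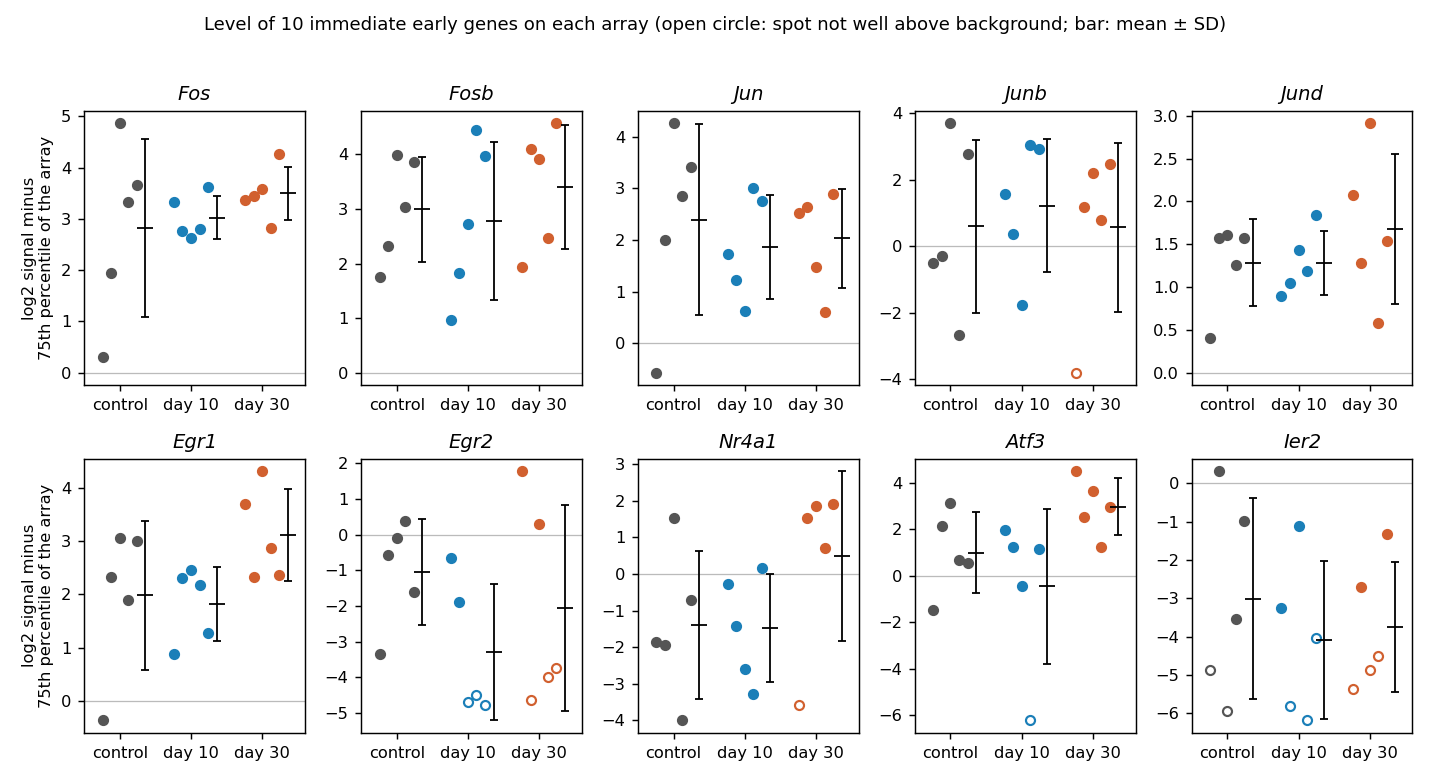
Level of each of the 10 genes on each array (y axis, log2 signal minus the 75th percentile of the array) for control, day 10 and day 30 of the high-fat diet (x axis), replicates 1 to 5 from left to right within a group. Filled circles are spots well above background, open circles are not, and bars are mean ± SD (n = 5). Fos and Jun spread most in controls. Egr2 has open circles in several arrays of the diet groups, and Ier2 has them in every group.

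Jun, the AP-1 partner of FOS proteins, had -0.57, 2.00, 4.26, 2.86 and 3.41 in controls, 1.73, 1.22, 0.63, 3.00 and 2.75 at day 10, and 2.53, 2.64, 1.48, 0.61 and 2.89 at day 30. Control replicate 1 was again the lowest array and control replicate 3 the highest. Jund, the JUN family member that is usually present before stimulation, had 0.41, 1.57, 1.60, 1.26 and 1.58 in controls, 0.89, 1.05, 1.44, 1.18 and 1.84 at day 10, and 2.07, 1.28, 2.91, 0.58 and 1.54 at day 30. Control replicate 1 was its lowest array and day 30 replicate 3 its highest. Junb, a JUN family member prominent in Th17 and Th2 cells, ranged from -2.68 to 3.70 in controls, -1.78 to 3.04 at day 10 and -3.80 to 2.47 at day 30, where replicate 1 was not well above background.

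Egr1, a zinc finger factor induced by MAP kinase signalling, had -0.37, 2.32, 3.05, 1.89 and 3.00 in controls, 0.88, 2.30, 2.46, 2.17 and 1.28 at day 10, and 3.70, 2.33, 4.31, 2.87 and 2.35 at day 30. All 5 day 30 arrays lay above the control mean of 1.98, and 2 of them above every control array. Egr2, a factor tied to T cell anergy and tolerance, was well above background in 5 of 5 controls, 2 of 5 arrays at day 10 and 2 of 5 at day 30. Over all spots the mean detection share was 63.8% in controls, 58.5% at day 10 and 51.3% at day 30. The Egr2 level was -3.36, -0.58, -0.09, 0.38 and -1.61 in controls, -0.66, -1.89, -4.69, -4.50 and -4.78 at day 10, and 1.78, -4.64, 0.30, -4.00 and -3.74 at day 30. In each diet group, 3 of 5 arrays lay below every control, and those 3 spots were not well above background. Nr4a1, the orphan receptor NUR77 that follows antigen receptor signalling, had -1.87, -1.94, 1.53, -4.00 and -0.72 in controls, -0.27, -1.42, -2.60, -3.28 and 0.17 at day 10, and -3.58, 1.54, 1.86, 0.70 and 1.91 at day 30. At day 30, 4 of 5 arrays lay above every day 10 array, and replicate 1, the only Nr4a1 spot not well above background, lay below them.

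Atf3, a stress-induced partner of JUN proteins, had -1.48, 2.14, 3.11, 0.67 and 0.54 in controls, 1.98, 1.23, -0.44, -6.22 and 1.14 at day 10, and 4.50, 2.51, 3.62, 1.25 and 2.97 at day 30. At day 30, 4 of 5 arrays lay above every day 10 array, and the day 10 value of -6.22 (replicate 4) was the only Atf3 spot not well above background. Ier2, a short intronless early gene, was well above background in 3 of 5 controls, 2 of 5 arrays at day 10 and 2 of 5 at day 30. The mean detection shares over all spots were 63.8%, 58.5% and 51.3% in these groups. The Ier2 level ranged from -5.95 to 0.32 in controls, -6.19 to -1.12 at day 10 and -5.36 to -1.33 at day 30, and the 3 ranges overlapped.

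At day 10 of the diet, compared with controls, none of the 10 genes passed the limma test at a Benjamini-Hochberg adjusted p under 0.05, and 0 of the 25987 genes did (0%). At an unadjusted p under 0.05 stood 2.59% of all genes, 0.889% higher and 1.70% lower, and none of the 10. Levels were higher at day 10 for 2 of the 10 genes and lower for 8, against 49.9% and 50.1% of all genes, and the median difference was -0.18 over the 10 and -0.0016 over all. For Egr2, with 3 of 5 day 10 spots not well above background, the fitted difference was -2.25 (SE 1.27, 95% interval -4.95 to 0.45, adjusted p = 1.00), and it was -1.83 with low values raised to the lowest detected signal, -0.88 with normexp and -0.41 in the authors' deposited table. For Atf3 it was -1.46 (SE 1.29, -4.19 to 1.28), and -0.018 without day 10 replicate 4, the undetected spot. On slide 1 alone, which held all controls and 3 of the day 10 arrays, the differences were -1.36 for Egr2, -0.073 for Atf3, -1.20 for Jun and -1.15 for Fosb. For Fos the difference was 0.20 (SE 0.64), with an interval of -1.14 to 1.55. Groups overlapped for all 10 genes, while 0.119% of all genes had day 10 arrays all above and 0.300% all below the controls.

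At day 30, compared with controls, the limma test again called none of the 10 genes and 0 of 25987 (0%). At an unadjusted p under 0.05 stood 5.14% of all genes, 2.47% higher and 2.67% lower, and none of the 10. Levels were higher for 6 of the 10 genes and lower for 4, against 50.3% and 49.7% of all genes, with a median difference of 0.40 against 0.0051. Atf3 differed by 1.97 (SE 1.29, -0.77 to 4.71), Nr4a1 by 1.89 (SE 1.15, -0.55 to 4.32) and Egr1 by 1.13 (SE 0.62, -0.19 to 2.46), each with an adjusted p of 0.93 from limma. The Egr1 difference was 0.55 without control replicate 1 and 0.26 in the authors' deposited table, and leaving out control replicate 4 gave 1.24 for Nr4a1 and leaving out day 30 replicate 1 gave 2.90. With the share as a covariate the Egr1 difference was -0.26, and those of Fos, Fosb and Jund turned negative too, at -0.78, -0.68 and -0.33. With slide as a block, which rests on the 5 day 10 arrays because no slide held both groups, the difference was 1.29 for Egr1, 2.01 for Nr4a1, 5.43 for Atf3, -1.96 for Fosb, -2.05 for Jun and -2.96 for Junb. Groups overlapped for all 10 genes, while non-overlapping groups were seen for 0.208% of genes upward and 0.400% downward.

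Between day 30 and day 10 of the diet, 0 of 25987 genes passed in limma (0%; 4.11% at an unadjusted p under 0.05, 1.82% higher and 2.29% lower). Of the 10 genes, 9 had a higher level at day 30 and 1 a lower, against 53.1% and 46.9% of all genes. The day 30 and day 10 groups are those of the comparisons above, so this count is not independent of them. Atf3 was the 1 gene of the 10 with an unadjusted p under 0.05, and it did not pass after adjustment. It averaged 2.97 ± 1.22 at day 30 and -0.46 ± 3.34 at day 10 (SD, n = 5 each). The difference was 3.43 (SE 1.29, 0.69 to 6.17, adjusted p = 0.999 from limma). Without day 10 replicate 4, where the spot was not detected, the Atf3 difference was 1.99, and within slide 2 it was 5.51. Egr1 averaged 3.11 ± 0.87 at day 30 and 1.82 ± 0.70 at day 10, a difference of 1.29 (SE 0.62, -0.028 to 2.62, adjusted p = 0.999), with all 5 day 30 arrays above the day 10 mean. It was 1.39 within slide 2 and 0.50 with the share as a covariate. Nr4a1 differed by 1.96 (SE 1.15, -0.47 to 4.40; 2.98 without day 30 replicate 1), and Fos by 0.47 (SE 0.64, -0.87 to 1.82). Within slide 2, Fosb and Jun had differences of -0.81 and -0.85, against 0.61 and 0.16 over all arrays. Groups overlapped for all 10 genes, against 0.281% of genes higher and 0.292% lower with no overlap.

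**Figure D2:**
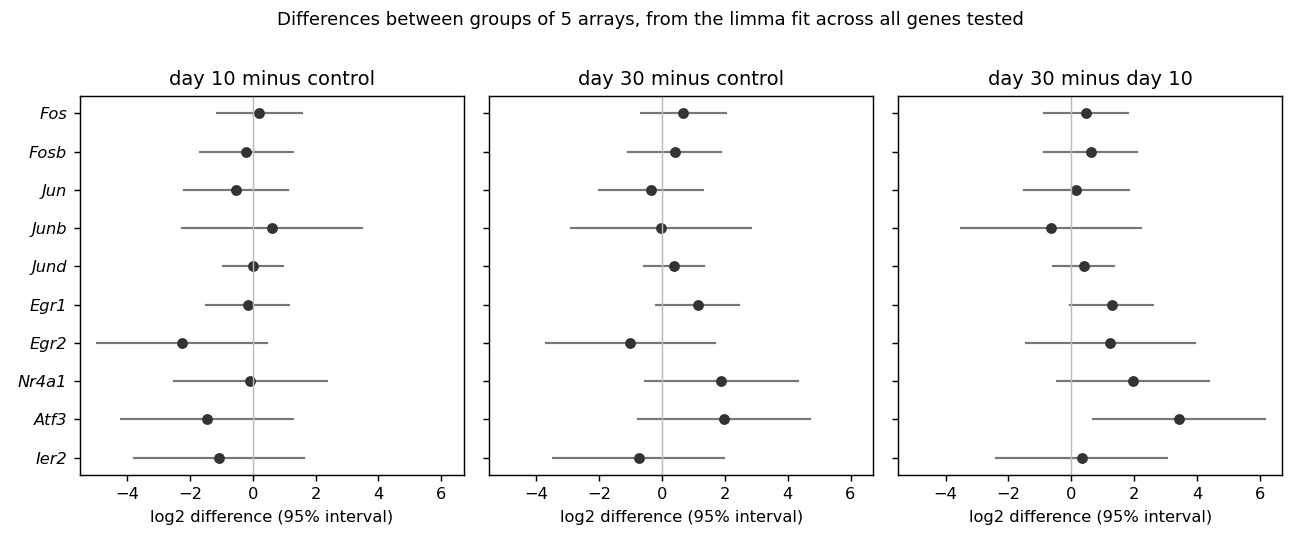
Differences in level (x axis, log2) of the 10 genes (y axis) for day 10 minus control, day 30 minus control and day 30 minus day 10, as points with 95% intervals from the limma fit across all genes tested. All intervals include 0 except that of Atf3 for day 30 minus day 10, whose adjusted p does not pass.

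Fitted over the 3 groups together, Fos, Egr1 and Jun had lower levels on arrays with a larger detection share, although none of the 3 passed without control replicate 1. In the 5 controls, ordered by a rising share of 50.9%, 55.5%, 64.6%, 66.0% and 82.0%, Fos had 4.86, 3.66, 3.32, 1.95 and 0.32, Jun had 4.26, 3.41, 2.86, 2.00 and -0.57, and Egr1 had 3.05, 3.00, 1.89, 2.32 and -0.37. Fos and Jun were lower at every step of the controls, and Egr1 at all but 1. At day 10, ordered by a rising share of 55.3%, 55.6%, 59.3%, 60.2% and 61.9%, Fos had 2.80, 2.63, 3.61, 2.76 and 3.32, Jun had 3.00, 0.63, 2.75, 1.22 and 1.73, and Egr1 had 2.17, 2.46, 1.28, 2.30 and 0.88. At day 30, ordered by 45.2%, 48.7%, 49.6%, 53.7% and 59.5%, Fos had 3.59, 3.37, 4.26, 3.45 and 2.82, Jun had 1.48, 2.53, 2.89, 2.64 and 0.61, and Egr1 had 4.31, 3.70, 2.35, 2.33 and 2.87. Neither diet group showed a fall at every step for any of the 3 genes, and the controls spanned the widest range of shares. At day 10 Fos was higher on the array of largest share (3.32) than on that of smallest share (2.80). The slope was fitted for every gene as the log2 change per 10 percentage points of detection share, with group in the model and all 15 arrays. All 10 genes had a negative slope, against 41.0% of all genes, with a median of -0.94 against 0.16. Of the 10 genes, 3 passed at an adjusted p under 0.05, all negative, against 8.98% of all genes called, 7.49% negative and 1.49% positive. Those 3, Fos, Egr1 and Jun, were well above background on all 15 arrays. Among the 11596 such genes, fitted on their own, 2344 were called negative and 405 positive, with a median slope of -0.081. At an unadjusted p under 0.05 stood 12.3% of all genes as negative and 9.85% as positive.

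Fos had a slope of -1.17 (SE 0.22, limma adjusted p = 0.00333), Egr1 of -1.12 (SE 0.23, adjusted p = 0.00468) and Jun of -1.35 (SE 0.31, adjusted p = 0.0112). Fosb at -0.87 (SE 0.35, adjusted p = 0.15) and Jund at -0.57 (SE 0.21, adjusted p = 0.11) did not pass, nor did Junb at -1.06 (SE 0.77), Egr2 at -1.01 (SE 0.73), Atf3 at -0.81 (SE 0.75), Nr4a1 at -0.50 (SE 0.68) and Ier2 at -0.064 (SE 0.77). Over the 15 arrays without regard to group, Pearson's r with the share was -0.817 for Fos (Spearman's rho -0.686, permutation p = 0.00101 for r and 0.00545 for rho, two-sided, unadjusted) and -0.845 for Egr1 (rho -0.757, permutation p = 0.00014 and 0.00163). Without control replicate 1 and day 30 replicate 3, the arrays farthest from the median share, r was -0.620 for Fos and -0.583 for Egr1 (n = 13). Within slides r was -0.893 on slide 1 and -0.489 on slide 2 for Fos, and -0.883 and -0.750 for Egr1 (n = 8 and 7). For Jun r was -0.556 (permutation p = 0.0321) and rho -0.414 (permutation p = 0.124), with -0.393 without those 2 arrays, -0.217 without control replicate 1, -0.707 on slide 1 and -0.103 on slide 2. Pearson's r without regard to group was computed for each of the 10 genes, and was 0.065 for Ier2, -0.168 for Egr2 and -0.265 for Junb. On deviations from the group means, rho was -0.579 for Fos (permutation p = 0.0693), -0.839 for Egr1 (permutation p = 0.00083) and -0.607 for Jun (permutation p = 0.0345). These values share their arrays with the fit above, whose p-values are adjusted over all genes, and are no separate evidence.

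**Figure D3:**
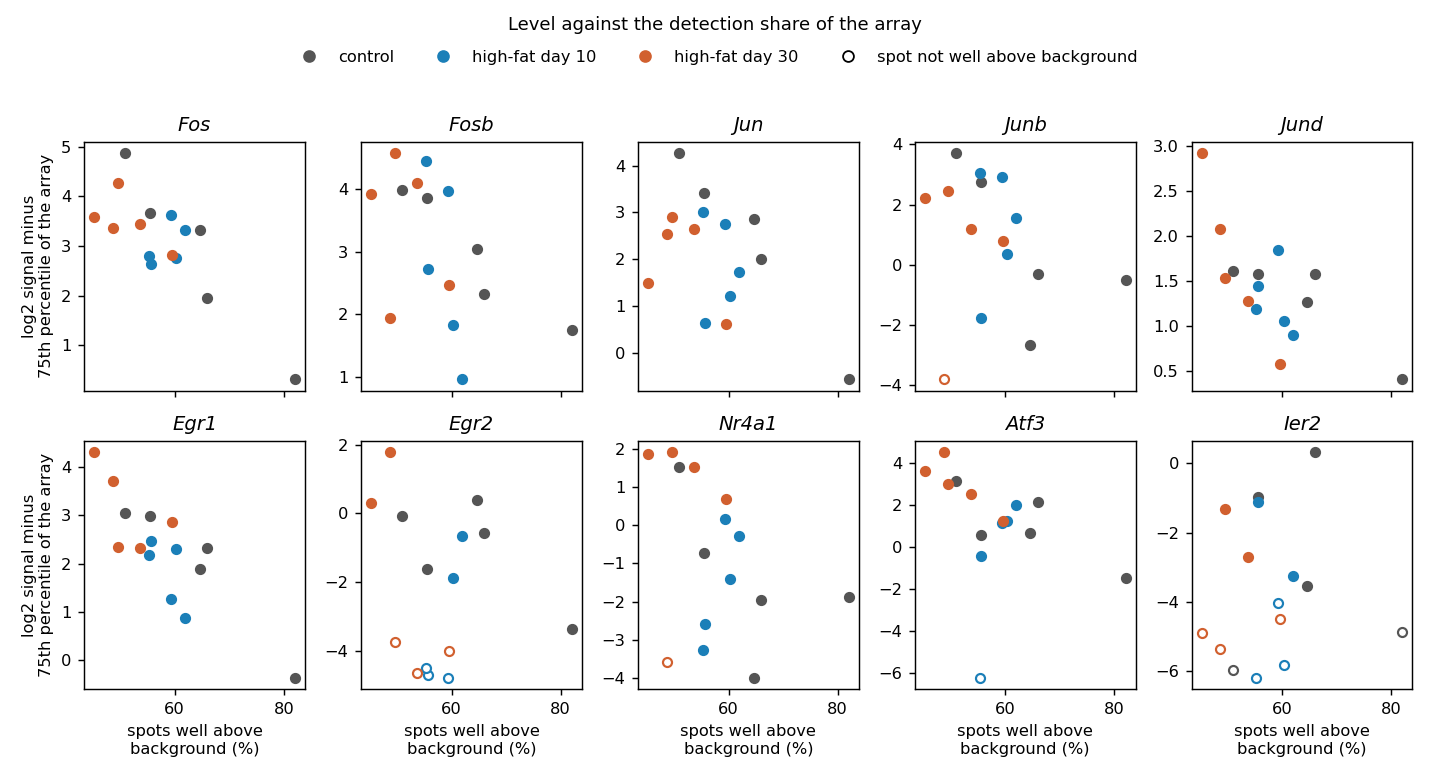
Level of each gene (y axis, log2 signal minus the 75th percentile of the array) against the detection share of the array (x axis, % of spots well above background) for the 15 arrays, coloured by group, with open circles for spots not well above background. The point at 82.0% is control replicate 1, which has the lowest value of the 15 for Fos, Jun, Jund and Egr1.

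These calls rested on control replicate 1. Without it, 7 of 25987 genes were called (0.0192% negative), none of the 10, and the slopes were -0.89 for Fos (adjusted p = 0.24), -0.90 for Egr1 (0.24) and -0.97 for Jun (0.37), with 9 of 10 negative and a median of -0.86. The call of Jun was also lost without control replicate 3, where its slope was -1.30 (adjusted p = 0.071) and 1275 genes were called in place of 2333. The direction of the calls over all genes depended on the scaling: 1946 were negative and 387 positive with the 75th percentile of all probes, 623 and 3450 with the percentile over probes detected on all arrays, 964 and 940 with quantile normalization, and 151 and 3005 in the authors' deposited table. The median slope of all genes was 0.16, 0.61, -0.028 and 0.18 under these 4 scalings. Relative to it, the slope was -1.33, -1.33, -0.85 and -0.21 for Fos, -1.28, -1.28, -0.95 and -0.51 for Egr1, and -1.51, -1.51, -1.27 and -0.66 for Jun. The 2 percentile scalings differ only by a constant per array, so their relative slopes are equal by construction and count once. In the authors' deposited table none of the 10 was called (the slopes were -0.030 for Fos, -0.34 for Egr1 and -0.48 for Jun), and that table has no value for Fos in control replicate 1.

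**Figure D4:**
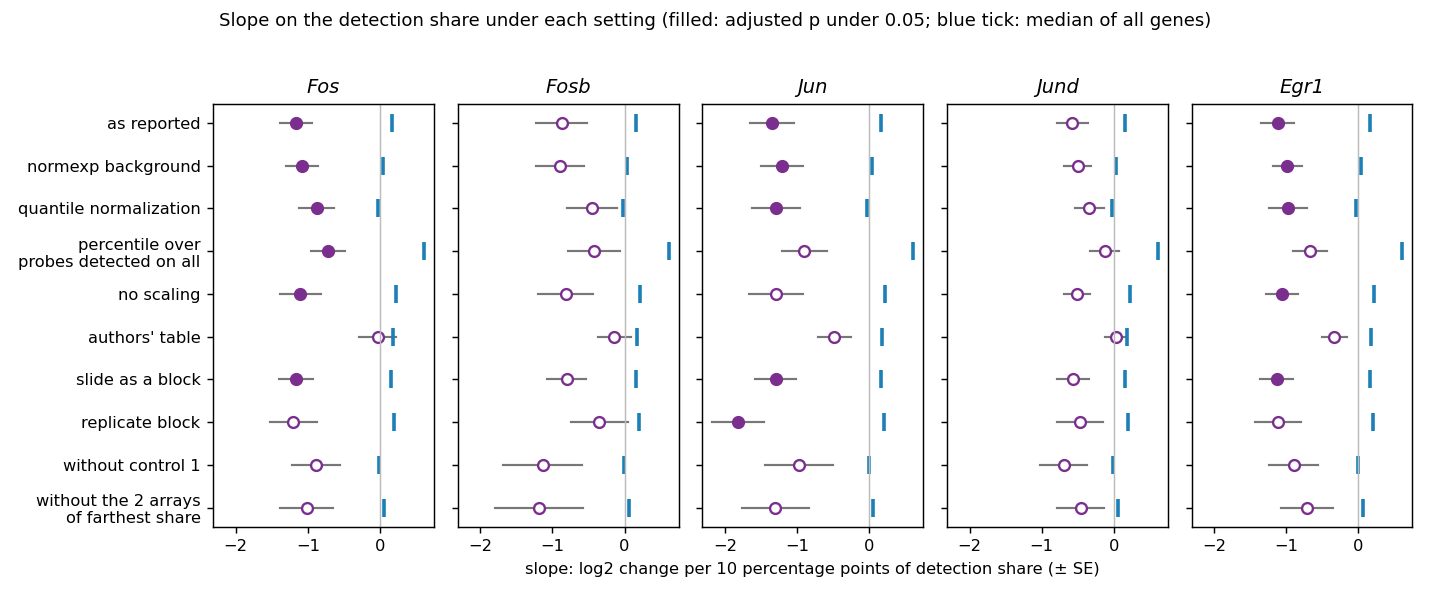
Slope on the detection share (x axis, log2 change per 10 percentage points, ± SE) for Fos, Fosb, Jun, Jund and Egr1 under 10 settings of the processing (y axis). Filled circles have an adjusted p under 0.05, and the blue tick is the median slope of all genes under that setting. The slopes of Fos, Jun and Egr1 lie to the left of the tick in all 10 settings, and those from the authors' table are the nearest to 0. As reported, with the percentile over detected probes and with no scaling, the distance to the tick is equal by construction.

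The other genes of the pathway were described by lists, to be read against 41.0% of all genes with a negative slope and 7.49% called negative. Of the 11596 genes well above background on all 15 arrays, 2344 were called negative, with a median slope of -0.081. Among other immediate early genes, 30 of 34 were tested, 28 had a negative slope and 13 were called negative, with a median of -0.76. They included Rgs1, a brake on chemokine receptor signalling (-0.75, adjusted p = 0.000247), and Btg1, an antiproliferative gene (-0.89, adjusted p = 0.00114). Without control replicate 1, 27 of the 30 were negative and none was called. Of the other EGR and NR4A genes and EGR corepressors, 3 of 6 were tested, and Nr4a2, a relative of Nr4a1 (-0.93, adjusted p = 0.00767), and Nab1, a corepressor of EGR factors (-0.93, adjusted p = 0.00865), were called. Of the other AP-1 family, 9 of 11 were tested, 5 were negative and Atf2 (-0.98) and Atf4 (-0.89) were called. Of 14 tested target genes of AP-1, NFAT and EGR in activated T cells, 12 were negative and 4 called, led by Icos, a costimulatory receptor (-0.97), and Cd69, an early activation marker (-1.32). Of 18 upstream SRF, CREB and MAP kinase genes, 9 were negative and 2 called, Map3k1 (-1.49) and Map2k2 (-0.87), with a median of 0.035, which is near the shares over all genes. The 10 CD4 T cell markers were all negative too, with a median of -0.74 and 4 called (10 negative and 0 called without control replicate 1). The log2 of their summed level had r of -0.865 with the share, 0.818 with Fos and 0.711 with Jun (n = 15, as a description). Of the 7 cytotoxic markers tested, 3 were called negative and 4 had a positive slope, with a median of 0.11 against 0.16 over all genes. The log2 of the summed cytotoxic level had r of -0.598 with the share, 0.767 with Fos and 0.756 with Jun. The brightest markers weigh most in such a sum. The part of either marker list in the slopes of the early genes was not tested. The list counts moved with the scaling. With the percentile over detected probes, 21 of 30 other immediate early genes were negative and 7 called, and 9 of 10 CD4 T cell markers were negative and 1 called. With quantile normalization these were 26 of 30 with 8 called, and 9 of 10 with 0 called. In the authors' deposited table they were 18 of 29 with 0 called and a median of -0.075, and 5 of 10 with 0 called and a median of -0.066. Without control replicate 3, 9 of the 30 early genes and 0 of the 10 markers were called.

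**Figure D5:**
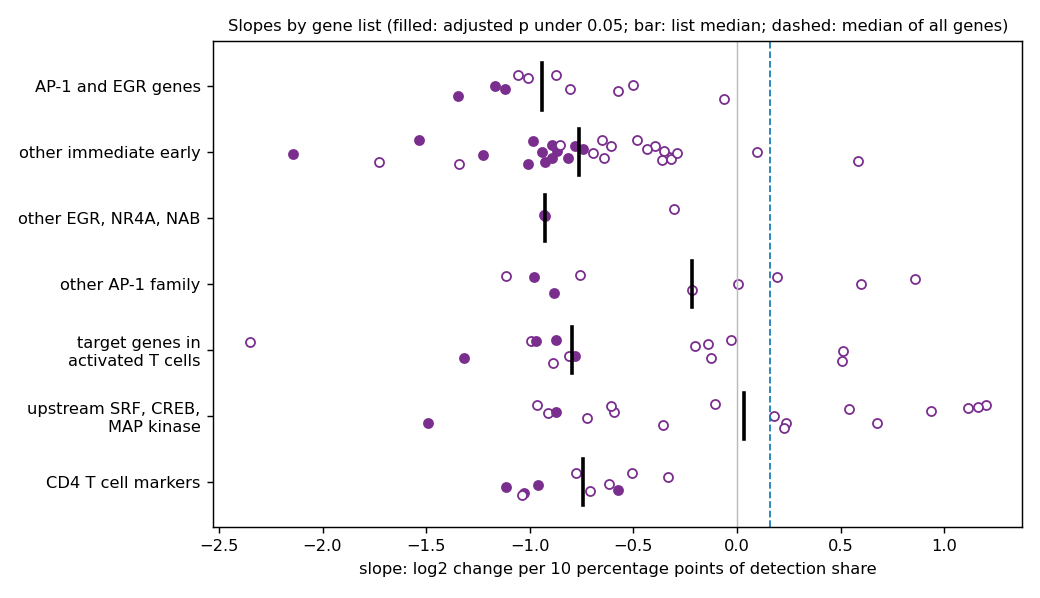
Slope on the detection share (x axis, log2 change per 10 percentage points) of each tested gene in 7 lists (y axis). Filled circles have an adjusted p under 0.05, black bars are list medians and the dashed line is the median of all genes. The 10 AP-1 and EGR genes and the 10 CD4 T cell markers lie left of 0, while the other AP-1 family and the upstream genes lie on both sides.

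In the comparisons of groups, the lists held no gene with an adjusted p under 0.05 in limma. At day 30, compared with controls, 22 of the 30 other immediate early genes and 12 of the 14 target genes had higher levels, with medians of 0.65 and 0.46, and all 10 CD4 T cell markers did, with a median of 0.37. Over all genes tested 50.3% had higher levels, with a median of 0.0051. Genes well above background on all 15 arrays had a median of 0.21. On the log2 scale, the summed level of the CD4 T cell markers was 6.72 to 8.0 at day 30 and 5.46 to 8.05 in controls, that of the 6 B and plasma cell markers was 1.89 to 4.76 and 0.32 to 2.47, that of the 8 macrophage and dendritic cell markers 4.13 to 5.90 and 3.56 to 5.56, and that of the 7 epithelial markers 7.94 to 9.14 and 7.84 to 8.32. That of the 8 cytotoxic markers was 6.36 to 7.22 and 5.48 to 7.87, and that of the 6 stromal markers -0.54 to 3.92 and 1.96 to 3.80. For the 5 granulocyte and mast cell markers it was -3.06 to 0.12 and -3.62 to 1.09. Taken singly, 3 tested epithelial markers were higher at day 30 and 4 lower, and 3 cytotoxic markers higher and 4 lower. The macrophage and dendritic list had 4 higher and 3 lower, the B and plasma list 3 and 1, and stroma 0 and 2. The part of these markers in the differences was not tested. Rgs1 averaged 8.08 ± 0.49 at day 30 and 7.35 ± 0.93 in controls (difference 0.74, adjusted p = 0.93), and Nr4a2 averaged 5.13 ± 0.73 and 4.06 ± 1.28 (difference 1.06, adjusted p = 0.93). Between day 30 and day 10, Srf, the factor that binds CArG boxes, averaged 2.04 ± 1.49 and 0.25 ± 0.79 (difference 1.79, unadjusted p = 0.025, adjusted p = 0.999), and Irf1, an interferon response factor, 2.33 ± 0.86 and 0.99 ± 0.85 (difference 1.33, unadjusted p = 0.0256, adjusted p = 0.999). At day 10, compared with controls, Map2k1, which encodes the kinase MEK1, averaged -1.65 ± 2.90 and 2.02 ± 1.29 (difference -3.66, unadjusted p = 0.00584, adjusted p = 1.00), and Myc -2.74 ± 2.24 and 0.071 ± 2.59 (difference -2.81, unadjusted p = 0.0437, adjusted p = 1.00).

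Over the 15 arrays the levels of the 10 genes were related pair by pair as a description, with no test, since all pairs share the arrays. Of the 45 pairs, 36 had a positive r, with a median of 0.36. The median r of each gene with all genes tested was from -0.148 (Jun) to 0.053 (Egr2). With the other genes of the 10 it was from 0.017 (Ier2) and 0.099 (Junb) to 0.477 (Fos). The pair of highest r was Fos and Jun, the classical AP-1 pair, at 0.796, and it was 0.870 on deviations from the group means. With the detection share also removed, Fos and Jun had 0.627 and Junb and Nr4a1 the highest value, 0.823, while the median over pairs was -0.032 and 21 of 45 were positive. For Fos and Egr1 it was 0.538 on deviations from the group means and -0.607 with the share also removed. The genes most like Fos, out of 6632 named genes well above background on all arrays, were Il17ra, the receptor subunit for interleukin 17 (r = 0.958), and Ppib, a cyclophilin of the endoplasmic reticulum (r = 0.941). Those most like Jun were Cept1 (0.914) and Anxa5 (0.880), and those most like Jund were Srp14 (0.875) and Coro1c (0.862). Ier2 was the least matched, with 0.778 for Ica1l and 0.738 for Poli. The genes most like Fos themselves had r of -0.837 and -0.845 with the detection share.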

How the data were processed

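Agilent Feature Extraction 10.7.3.1 with protocol GE1_107_Sep09 and a grid annotated on mm9 produced the deposited scanner intensities, which it had subtracted for background and detrended within each array, per the file headers. The deposited log2 table of the authors has the same median, 5.51, in all 15 columns and 23131 to 42649 values a column, with a Spearman correlation of at least 0.991 with the scanner values of the same array; its normalization is not given in the sources used here. Outlier spots were left out, spots of 1 probe were averaged, and the brightest probe stood for a gene. From log2 of the processed intensity each array's 75th percentile over non-control probes was subtracted. Genes marked as well above background on fewer than 5 of 15 arrays, 8818 in all, were not tested. Limma 3.58.1 (R 4.3.3) fitted the 3 groups with lmFit and eBayes with trend, and a second fit added the detection share, both two-sided with Benjamini-Hochberg adjustment over 25987 genes at 0.05. Permutation p-values used 100000 resamples. The scripts were tested on simulated data. No 2 arrays held the same values: the median absolute difference between any 2 was at least 0.803. That difference does not tell whether 2 arrays came from the same mouse or RNA.

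The 10 genes, the pathway and marker lists and the settings were chosen with earlier results of these data known. The genes named are the 10, the 3 genes of smallest p in each comparison and 2 of smallest p for the slope from each pathway list, and the 2 most like each of the 10; the text prints part of them. Motif letters were read in windows from RefSeq. Alternatives were normexp (offset 50) background, 3 other scalings, the deposited table, other filters, raised low values, slide, the detection share, a replicate block and leaving out arrays. The number of arrays limits the precision.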

Additional observations from a re-analysis of the deposited data

Results flagged for a closer look

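In 3 of 33 sets of 5 arrays examined (the 10 genes and the detection share in each group), the lowest array stood apart by Dixon's gap criterion (critical value 0.71), which chance passes for about 1 in 20 sets. Junb had -3.80 in day 30 replicate 1, against 0.80 for the nearest array of the group, and that spot was not well above background. Nr4a1 had -3.58 in the same array, against 0.70 for the nearest, and was not well above background either. Jund had 0.41 in control replicate 1, the array with a detection share of 82.0%, against 1.26 for the nearest control.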

How the results depend on the processing

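None of the 30 differences between groups for the 10 genes passed under any alternative, and 9 kept their direction under all of them; 67 of 665 recomputed values had the opposite sign. All alternatives called 0 genes in the group comparisons, except 1 gene with slide as a block at day 30 minus control (Vkorc1l1), 1 gene in the fit across all probes at day 30 minus day 10 (Homer1) and 2 genes without day 10 replicate 4 in that comparison (As3mt and Suclg2, 0 to 2 over arrays left out), all named after their values were seen. For day 30 minus control the median over all genes was 0.0051, and -0.38 with the percentile over detected probes, -0.32 unscaled, -0.24 in the deposited table and 0.15 with slide as a block. The sign of the difference turned as follows, and the cause was not tested. For day 10 minus control, the deposited table gave -0.21 for Fos, 0.079 for Atf3 and 0.48 for Nr4a1, the detection share as a covariate -0.42 for Fos, quantile normalization 0.44 for Nr4a1, and slide as a block or slide 1 alone -0.55 for Junb. For day 30 minus control, the deposited table gave -0.19 for Fos, -0.16 for Fosb, 0.28 for Junb, -0.24 for Jund and 0.38 for Egr2; the detection share gave -0.78 for Fos, -0.68 for Fosb, -0.33 for Jund and -0.26 for Egr1; slide as a block gave -1.96 for Fosb, 1.22 for Egr2 and 0.97 for Ier2; and Junb had 0.063 with normexp, 0.22 with quantile normalization and 0.065 with low values raised. For day 30 minus day 10, the deposited table gave -0.26 for Jun, -0.088 for Jund and -0.047 for Ier2; the detection share gave -0.36 for Fos, -0.011 for Fosb, -0.79 for Jun and -0.017 for Jund; Jun had -0.11 unscaled (an alternative chosen after seeing the data), -0.13 with the percentile over detected probes and -0.050 with quantile normalization; and slide as a block or slide 2 alone gave -0.81 for Fosb and -0.85 for Jun. With 1 array left out, day 10 minus control spanned -0.42 to 0.71 for Fos, -0.62 to 0.25 for Fosb, -0.20 to 1.40 for Junb, -0.22 to 0.095 for Jund, -0.75 to 0.11 for Egr1 and -0.73 to 0.65 for Nr4a1; day 30 minus control spanned -1.10 to 0.11 for Jun, -0.84 to 1.07 for Junb and -1.48 to 0.085 for Ier2; and day 30 minus day 10 spanned -0.15 to 0.52 for Jun, -1.40 to 0.45 for Junb and -0.27 to 1.07 for Ier2.

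The slope calls numbered 2333, and 4073 with the percentile over detected probes, 1538 on slide 1, 0 on slide 2 (2315 at an unadjusted p under 0.05), 0 without the 2 arrays of farthest share (3580 unadjusted) and 7 to 2475 with 1 array left out, fewest without control replicate 1 (7) and control replicate 3 (1275). The calls of Fos, Egr1 and Jun held with normexp, quantile normalization, raised low values, both filters, slide as a block and slide 1; the percentile over detected probes ended those of Egr1 (-0.67, adjusted p = 0.061) and Jun (-0.90, 0.060), no scaling that of Jun (-1.29, 0.051), and no group term that of Jun (-0.78, 0.14). Replicate numbers are shared between groups, and 1 of 15 same-numbered pairs of arrays correlated over 0.1 (-0.126 to 0.153). In most of these pairs the array did not correlate best with its own number, and the main fit did not pair samples by number. Whether same-numbered samples were handled together cannot be told from these correlations. With the replicate block the slope calls numbered 1364, the slopes were -1.20 for Fos (adjusted p = 0.066), -1.12 for Egr1 (0.074) and -1.82 for Jun (0.017), and the differences between groups did not change (Fos 0.20, 0.68 and 0.47; Egr1 -0.16, 1.13 and 1.29), with 0 genes called. Slopes turned positive for Jund (0.027), Egr2 (0.54) and Nr4a1 (0.058) in the deposited table, for Junb (0.10), Nr4a1 (0.86) and Ier2 (0.59) on slide 2, for Nr4a1 (0.66) and Ier2 (0.48) with the replicate block, for Atf3 (0.11) and Ier2 (1.10) without the 2 arrays of farthest share, and for Ier2 with the percentile over detected probes (0.38) and with no group term (0.15); with 1 array left out they spanned -0.83 to 0.21 for Nr4a1 and -1.01 to 1.21 for Ier2.

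Each gene had 1 probe, so another probe could not be tried, and no slide held both day 30 and control. Junb, Egr2, Nr4a1, Atf3 and Ier2 had no value among probes detected on all 15 arrays. The deposited table holds 8 values for Egr2, 9 for Nr4a1, 7 for Ier2 and 12 for Fos. Values of spots not well above background have no order among themselves.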
